A study of Rattus norvegicus with 98 samples.

Results

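The acetylated chromatin of 2 neighbouring fields of the rat medial prefrontal cortex was compared: the prelimbic cortex (PLC) and the infralimbic cortex (ILC). All 4 PLC libraries were set against all 4 ILC libraries, 8 of the 94 peak lists analysed, and each region held Sham and FT replicates 1 and 2. H3K27ac is an acetylated lysine of histone H3 that lies at active promoters and enhancers, so a list of its enriched sites (peaks) is a map of the regulatory elements in use in a tissue. The prelimbic cortex is known for its part in the expression of learned fear and in goal-directed behaviour, and the infralimbic cortex for its part in the extinction of fear and in habits. Both send axons to the amygdala, the nucleus accumbens and the brainstem, and they touch each other on the medial wall of the hemisphere.

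The animals were male Long-Evans rats, 2 months old at the start, given plain drinking water (Sham) or water with fluoxetine, a selective serotonin reuptake inhibitor, for 6 weeks at a daily dose of 18 mg per kg (FT). Each library was made from tissue punches pooled over several animals, so replicates measure the spread between pools, not between animals. The study's methods give a single number of animals per treatment group for the ChIP-seq of all regions. PLC and ILC libraries of a treatment therefore probably came from the same animals. Whether a replicate number stood for the same pool in both regions was not stated outright, and the main tests did not pair the libraries. In punched tissue, fewer cells of a type and less acetylation per cell cannot be told apart. Identity of the punches could not be checked against marker genes, because the lists carry positions on the Rn5 genome and no gene names, and the annotation at hand was of another build.

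Both Sham replicate 2 lists stood apart, in PLC as in ILC, and most results that rest on them are given with and without them. Counts within Sham, which need both Sham lists of a region, are given only with them. PLC lists held 30577 and 19629 peaks in Sham and 54505 and 50668 in FT. ILC lists held 33606 and 19378 peaks in Sham and 50499 and 48045 in FT. In each region the FT lists were longer than the Sham lists, and within Sham the replicate 2 list was the shorter in both regions. Read depth is unknown, since the lists hold no read counts, so a longer list cannot be told apart from a more deeply sequenced library.

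**Figure D1:**
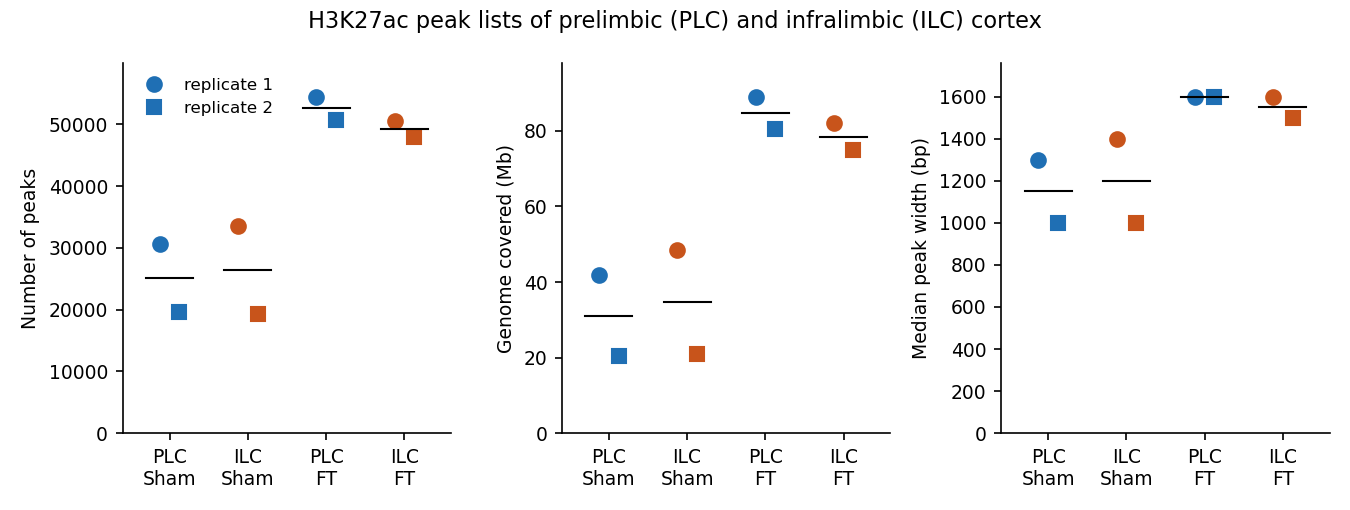
Number of peaks, genome length covered by peaks in Mb and median peak width in bp (y axes) for the full PLC (blue) and ILC (orange) lists by treatment (x axis). Circles are replicate 1, squares replicate 2 and bars the mean of both; within each treatment the PLC and ILC points lie at about the same height, and the Sham replicate 2 lists of both regions, with 19629 and 19378 peaks, are the shortest.

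Whether the amount of acetylated chromatin differed between the regions was asked first, and no difference was detected. PLC lists held a mean of 38845 ± 16559 peaks (SD, n = 4) and ILC lists 37882 ± 14413 (SD, n = 4), a log2 ratio of PLC to ILC of 0.04 (exact permutation test over 4 against 4 libraries, two-sided, p = 0.857). Peaks covered 41.7 and 20.5 Mb in PLC Sham and 89.0 and 80.6 Mb in PLC FT. In ILC they covered 48.4 and 20.997 Mb in Sham and 82.0 and 75.0 Mb in FT. The log2 ratio of covered length was 0.03 (exact permutation test, two-sided, p = 0.971). Peaks had a median width of 1300, 1000, 1600 and 1600 bp in the PLC lists (Sham 1 and 2, FT 1 and 2) and 1400, 1000, 1600 and 1500 bp in ILC. The mean was 1375 bp in both, so the log2 ratio of median width was 0 (exact permutation test, two-sided, p = 1). With both Sham replicate 2 lists left out the log2 ratios were 0.04, 0.04 and 0 (exact permutation test over 3 against 3, two-sided, p = 0.8, 0.9 and 1, where the smallest possible is 0.1).

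Within treatments the direction of the covered length turned. In Sham, PLC covered less than ILC in both replicates, at a log2 ratio of -0.16, and in FT it covered more in both, at 0.11. Peak number gave a log2 ratio of -0.08 in Sham and 0.09 in FT. With 2 libraries against 2 an exact test cannot go below p = 0.333, so neither value within a treatment could pass the threshold.

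To compare where the peaks lay without the effect of list length, each list was then cut to its 19378 best-scoring peaks, the length of the shortest of the 8. The score was the deposited maxScore, the highest value of the peak caller's filter within a peak, and rank 1 is the best-scoring peak of a list. Occupancy was read in successive 1 kb windows along each chromosome, with at least 50% of a window under peaks for it to count as occupied. After the cut the lists still differed in breadth, since their peaks differed in width. PLC lists occupied 31860, 20097, 42330 and 40988 windows in the order Sham 1, Sham 2, FT 1, FT 2, and ILC lists 34517, 20809, 41640 and 40228.

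The sites of both regions were largely shared. Of 66814 windows occupied in at least 1 of the 8 lists, 12938 were occupied in all 4 PLC lists and 13668 in all 4 ILC lists, and 8908 were in all 8, which is 68.9% of the first set and 65.2% of the second. In the 6 lists other than Sham replicate 2, 25458 windows were in all 3 PLC lists, 27625 in all 3 ILC lists and 21947 in all 6, which is 86.2% and 79.4%. Similarity of lists was measured by the Jaccard index, which divides the windows that both lists occupy by those that either occupies. Averaged over all pairs, the index within regions minus that between regions was -0.02 (exact permutation test, two-sided, p = 0.6), and 0.0015 without both Sham replicate 2 lists (exact permutation test, two-sided, p = 1).

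In FT, the mean index within regions exceeded that between regions by 0.03, with 0.77 between the PLC FT lists, 0.74 between the ILC FT lists and 0.71 to 0.74 between PLC and ILC (exact permutation test, two-sided, p = 0.333, the smallest this design can give). In Sham, the order was opposite, with a difference of -0.06 (exact permutation test, two-sided, p = 1). There the PLC and ILC lists of replicate 1 shared an index of 0.63, against 0.37 between the PLC replicates and 0.36 between the ILC replicates. Sham replicate 2 lists reached no more than 0.37 with any of the other lists.

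**Figure D2:**
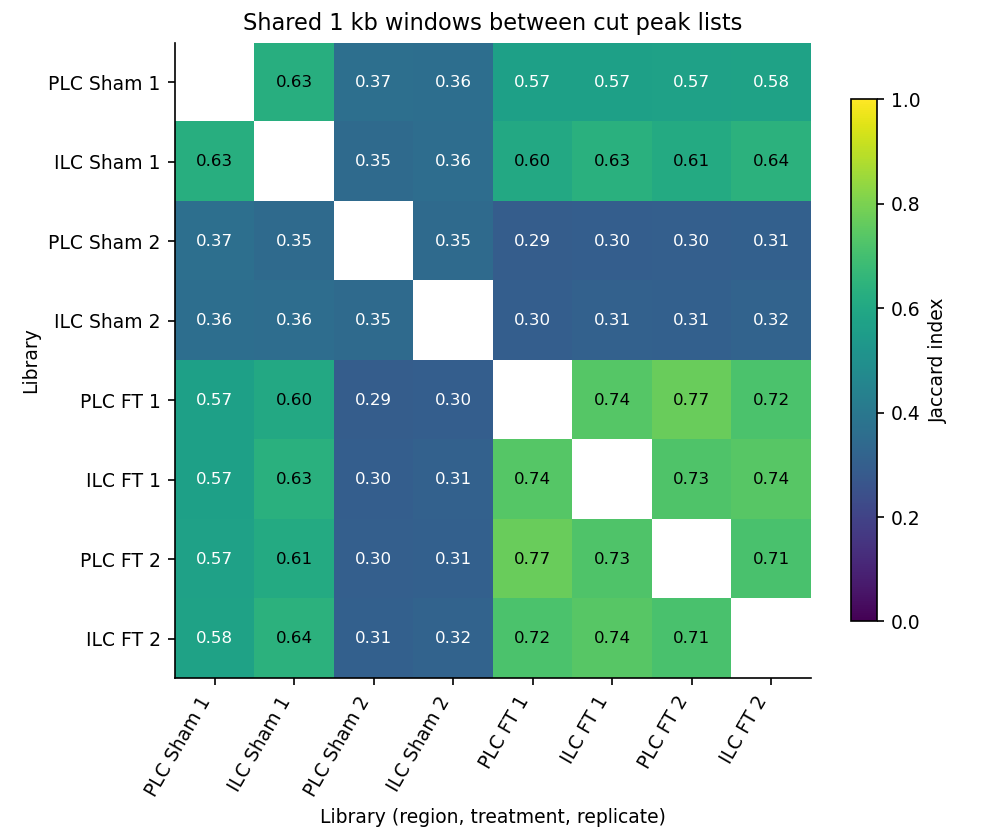
Jaccard index of shared 1 kb windows (colour and number, 0 to 1) between each pair of the 8 cut lists, ordered by treatment and replicate number with PLC and ILC side by side. FT lists of either region share 0.71 to 0.77 with one another, while the Sham replicate 2 lists of both regions share at most 0.37 with any list.

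Few windows separated the regions completely. A window was counted as higher in PLC when all 4 PLC lists occupied it and none of the 4 ILC lists did, and the reverse for ILC. By this rule 31 windows were higher in PLC (0.0464% of the 66814 windows) and 57 in ILC (0.0853%), 88 in all or 0.132%. Adjoining windows were joined to 29 PLC loci and 50 ILC loci, spread over 18 chromosomes in each direction, and no locus was longer than 2 windows. Taking each PLC library with the ILC library of the same treatment and replicate number as a replicate block, and asking for a difference in at least 3 of the 4 pairs and in none the opposite way, 476 windows were higher in PLC (0.712%) and 659 in ILC (0.986%).

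The 88 windows rested on the Sham replicate 2 lists more than on any others. Leaving out 1 of them gave 319 or 371 windows, and leaving out both 643. Without PLC Sham replicate 2, 250 windows were higher in PLC and 69 in ILC, and without ILC Sham replicate 2, 36 and 335. Leaving out any 1 of the other 6 lists gave 56 to 101 windows in PLC and 97 to 122 in ILC. Without both of these lists, all 3 PLC lists and none of the 3 ILC lists occupied 268 windows, and the reverse held for 375, together 1.1% of 58369 windows. These calls were then looked up in the pair of lists left out. Of the 268 PLC windows, 31 were occupied in PLC Sham replicate 2 alone, 13 in ILC Sham replicate 2 alone, 5 in both and 219 in neither. Of the 375 ILC windows, 57 were occupied in ILC Sham replicate 2 alone, 28 in PLC Sham replicate 2 alone, 12 in both and 278 in neither. Over all windows, 9587 were occupied in PLC Sham replicate 2 and not in ILC Sham replicate 2, and 10299 the reverse. Where the left-out lists differed, the region of the call was thus the more frequent one in both directions.

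The region difference was in part the same within Sham and within FT. Within Sham, 590 windows were in both PLC lists and neither ILC list (1.16% of 50644) and 1125 the reverse (2.22%). Within FT, 1970 were higher in PLC (3.67% of 53611) and 1484 in ILC (2.77%). The 31 PLC windows common to both treatments were 5.25% of the Sham set and 1.57% of the FT set, and the 57 ILC windows were 5.07% and 3.84%. These shares stand beside the 1.16% and 2.22% of Sham windows and the 3.67% and 2.77% of FT windows that were called over all windows. The direction was opposite at 10 windows higher in PLC in Sham and in ILC in FT (1.69% of the Sham set), and at 8 the reverse (0.711%). Beside these stand the 2.77% and 3.67% of all FT windows called in the same FT direction. Of the 590 windows higher in PLC within Sham, 141 were in more PLC than ILC lists of FT, 60 in more ILC lists and 389 in equal numbers, or 23.9% and 10.2% for the first pair of counts. Over all 50644 Sham windows, 7.85% were in more PLC lists of FT and 8.72% in more ILC lists. For the 1125 windows higher in ILC within Sham, the counts in FT were 282 in more ILC lists, 88 in more PLC lists and 755 in equal numbers, 579 of the last being occupied in all 4 FT lists. The first pair of counts was 25.1% and 7.82%. Of the 1970 windows higher in PLC within FT, 18.6% were in more PLC lists of Sham and 9.8% in more ILC lists. Of the 1484 windows higher in ILC within FT, 29.2% were in more ILC lists of Sham and 10.1% in more PLC lists. Over all 53611 FT windows, 15.1% were in more PLC lists of Sham and 20.9% in more ILC lists. Of the 1970 and 1484 windows, 1266 and 666 were occupied in no Sham list.

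By the same rule treatment separated more windows than region did, and the FT lists were also the broader ones. All 4 FT lists and none of the 4 Sham lists occupied 2912 windows (4.36%), and the reverse held for 32 (0.0479%). Cut FT lists occupied 40228 to 42330 windows and cut Sham lists 20097 to 34517, and the part of this breadth in the count was not tested. Replicate 1 and replicate 2 lists were separated at 94 windows in one direction and 2 in the other. Without both Sham replicate 2 lists, 4 against 2, FT was higher at 3250 windows (5.57%) and Sham at 582 (0.997%), and replicate 1 at 139 and replicate 2 at 386.

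By the medians, the 79 loci ranked further back in the other region than in the region of the call. This order did not hold at every locus, as loci named below show. The rule that chose the loci largely sets the order, so the medians do not test whether rank differed. Mean ranks in the region of the call ran from 1300.25 to 16952.9 over PLC loci and from 768.75 to 16887.4 over ILC loci. The median over PLC loci of the mean rank in PLC was 13510, and the best ILC peak at such a locus had a median rank of 20128 in the full ILC lists. ILC loci had a median rank of 13915 in ILC, and the best PLC peak there had a median rank of 20549. These are the best of 4 lists. All 4 full lists of the other region reached into only 3 of the 29 PLC loci and 1 of the 50 ILC loci, and at least 1 full list did so at each of the 79. Within the cut lists, 22 of the 29 PLC loci and 43 of the 50 ILC loci were free of any peak of the other region. At these loci, peaks of the other region could only rank behind the cut, while peaks of the region of the call lay within it. On the full lists 14 windows were higher in PLC and 13 in ILC (0.0224% of 120436 together), and 5 of the 27 were among the 88.

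These 5 windows give the loci whose call held on cut and on full lists. Among the PLC loci of this kind the best rank was that of chr10:55741001-55742000 (Rn5). Peaks covered 941, 811, 915 and 546 bp of it in PLC (Sham 1, Sham 2, FT 1, FT 2) and 62, 0, 302 and 421 bp in ILC. Coverage was above 500 bp in each PLC list and below it in each ILC list, although the peaks that reached into it ranked as well in ILC (865.5 and 528 in FT) as in PLC (1219 and 810). At the PLC locus chr16:9016001-9017000, 540, 567, 553 and 634 bp were covered in PLC against 381, 394, 433 and 375 bp in ILC, so that the call rested on the position of a peak edge. Coverage at the third PLC locus, chr11:87079001-87080000, was 531, 899, 799 and 800 bp in PLC. In ILC it was 199 bp in Sham 1, 0 in Sham 2, 490 bp in FT 1 and 173 bp in FT 2 on the full lists.

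Among ILC loci the best rank was that of chr1:76070001-76071000, where 556, 771, 588 and 599 bp were covered in ILC and 375, 0, 499 and 434 bp in PLC. In FT the PLC values lay just under the 500 bp that made a window occupied. The peaks that reached into it ranked 1304, 489, 462 and 820 in ILC and 558, 268 and 275 in PLC, whose Sham 2 list had none, so the peak ranked ahead in PLC in each pair that could be compared. The element that overlaps this locus, chr1:76070402-76073166, was called as better ranked in PLC when both Sham replicate 2 lists were left out (log2 difference 1.20, SE 0.26, limma, adjusted p = 0.035). The other ILC locus, chr10:39177001-39178000, had 662, 603, 1000 and 621 bp in ILC. In PLC it was without a peak in both Sham lists and had 415 and 346 bp in FT.

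A stricter kind of absence was found at 11 windows, which were chosen after their values were seen. There all 4 full lists of one region occupied the window and no full list of the other region covered any base of it (0.00913% of 120436 windows). In 8 of the 11 the signal was in PLC: chr1:213260001-213261000, chr8:30324001-30325000, chr10:86553001-86554000, chr15:18794001-18795000, chr15:38944001-38945000, chr15:51018001-51019000, chr18:32171001-32172000 and chrX:71444001-71445000. In the other 3 it was in ILC: chr1:240381001-240382000, chr4:149182001-149183000 and chr5:83760001-83761000. All were weak peaks. The deposited −log10 p ran from 4.22 to 8.46 in PLC and from 4.03 to 5.48 in ILC, where the lists start at 4 and end at 200. Of the 86 lists from other regions, none to 4 occupied the PLC windows, and 24, 13 and 0 the ILC windows. The ILC window on chromosome 1 was occupied in all 4 lists of the lateral septum and all 4 of the medial septum. Without both Sham replicate 2 lists, 127 windows in PLC (0.111%) and 98 in ILC (0.0853%) were of this kind.

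How the separated windows behaved in the rest of the brain was read from the 86 lists of the other 23 regions, which had no part in choosing them. Among these, habenula (HB) Sham replicate 1 occupied 1.55% of all windows and 0% of both sets, where the other lists occupied 32.0% to 59.6% of all windows. It was kept in the HB values and in means over the 23 regions. PLC and ILC windows followed different regions. In the insular cortex (InsularCortex) the 4 lists occupied 74.2% to 80.6% of the 31 PLC windows but 14.0% to 42.1% of the 57 ILC windows. All windows together were occupied there at a mean of 57.1%. In the cingulate cortex (CGC), the next field of the medial wall, the means were 65.3% of PLC windows, 55.7% of ILC windows and 56.1% of all windows, and the ranges of the PLC and ILC windows overlapped.

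Most subcortical regions had the opposite pattern, though not all. In the bed nucleus of the stria terminalis (BNST), lists occupied 0% to 6.45% of PLC windows and 77.2% to 80.7% of ILC windows, against a mean of 46.8% of all windows. In the lateral septum (LS) the means were 8.1% and 83.8%, in the medial septum (MS) 8.1% and 79.4%, in the raphe (Raphe) 6.5% and 77.6% and in the ventral tegmental area (VTA) 8.9% and 77.6%. The periaqueductal grey (PAG) had few of either, at 12.9% of PLC windows and 10.1% of ILC windows against 38.6% of all. In CMA, dorDG and the arcuate nucleus the ILC windows were near or below all windows, at means of 52.2% against 53.0%, 43.4% against 48.8% and 45.6% against 49.0%. PLC windows were lower still there, at 27.4%, 18.5% and 10.8%, but dorDG FT replicate 2 occupied 25.8% of PLC and 21.1% of ILC windows. For the windows called without both Sham replicate 2 lists, the insular cortex occupied a mean of 65.8% of the 268 PLC windows, 26.3% of the 375 ILC windows and 65.1% of all windows. There the PLC windows were thus at the level of all windows, while the ILC windows were below it. CGC occupied 55.4% of PLC windows and 51.2% of ILC windows, both below its 63.9% of all windows. BNST occupied 8.8% and 66.3%, on either side of its 52.9% of all windows.

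**Figure D3:**
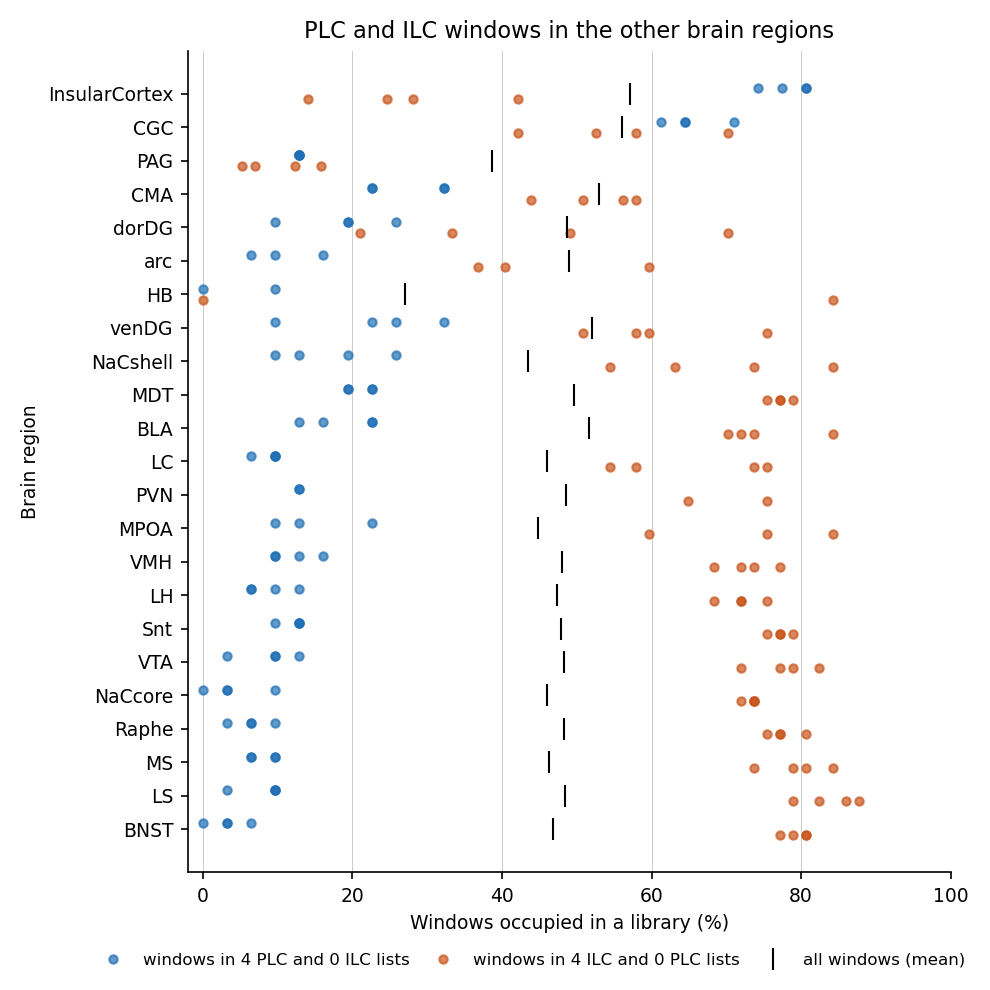
Share of the 31 PLC windows (blue) and the 57 ILC windows (orange) occupied in each list of the other 23 regions, in percent, with the mean share of all 66814 windows as a black bar. In InsularCortex the blue points (74.2% to 80.6%) lie above the orange ones (14.0% to 42.1%), and in BNST the orange points (77.2% to 80.7%) lie far above the blue ones (0% to 6.45%).

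Locus by locus, a PLC locus was occupied in a median of 9 of the 86 other lists (range 1 to 63) and an ILC locus in a median of 65 (range 2 to 82). The 66814 windows together had a median of 39. For the calls made without both Sham replicate 2 lists the medians were 11.5 for PLC windows, 59 for ILC windows and 50 for all windows. All 4 insular lists occupied 17 of the 29 PLC loci and 3 of the 50 ILC loci, and none of the 4 did so at 2 PLC loci and 22 ILC loci.

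Over all windows, PLC and ILC lists differed in their relative likeness to other regions by small amounts that mostly had 1 direction in the 4 pairs of the same treatment and replicate number. The Jaccard index of each list with the lists of another region was divided by its mean over the 23 regions, so that broad and narrow lists could be set side by side. Relative values thus average 1 over the 23 regions, and higher values for some go with lower values for others. Undivided, the index was higher in ILC in each pair for CMA, dorDG and venDG. For CGC it was higher in ILC in both Sham pairs (0.651 against 0.606 and 0.321 against 0.316) and in PLC in both FT pairs. Relative likeness to the insular cortex averaged 1.31 over PLC lists and 1.20 over ILC lists, and likeness to the cingulate cortex 1.32 and 1.24. PLC was the higher in 4 of 4 pairs for both, and likewise for PAG, CMA, dorDG and venDG. ILC was the higher in 4 of 4 pairs for 12 regions, LC, MDT, VMH, PVN, Snt, NaCcore, Raphe, LH, VTA, MS, LS and BNST. In all, 18 of the 23 regions had 1 direction in every pair. Across pairs the PLC and ILC values overlapped in 19 regions, and ILC was above PLC with no overlap in the other 4 (PVN, Snt, Raphe and VTA), by 0.02 to 0.03. Without both Sham replicate 2 lists, PLC was above ILC with no overlap in 3 regions (InsularCortex, CGC and PAG) and ILC above PLC in 11, and likeness to the insular cortex averaged 1.37 and 1.24. The most similar region of both PLC FT lists was the insular cortex, at mean indices of 0.69 and 0.70, and that of both ILC FT lists was the cingulate cortex, at 0.67 and 0.66. This split was not present in Sham. There CGC was the most similar region of both PLC lists (0.61 and 0.32) and of ILC Sham replicate 1 (0.65), and the shell of the nucleus accumbens (NaCshell, 0.33) that of ILC Sham replicate 2.

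Among the 21 regions with 4 libraries, PLC and ILC were the pair with the fewest separated windows. The same 4-against-0 count, made for all 210 pairs of regions, was 88 windows for PLC and ILC, the lowest, followed by 277 for LS and MS and 329 for Raphe and VTA, with a median of 5459 and a highest count of 24513. PLC against CGC gave 433 windows and ILC against CGC 597. PLC and ILC also had the fewest windows in all 4 of their lists, 12938 and 13668, where the next region had 18560. As a share of such windows, the count for PLC and ILC (0.331%) was again the lowest of the 210. With the Sham replicate 2 list of each region left out, PLC and ILC were still the lowest pair, at 643 windows, followed by 948 for LS and MS and 975 for Raphe and VTA, with a median of 8505.5 and a highest count of 29243. PLC against CGC then gave 1187 windows and ILC against CGC 1641, and NaCshell, not PLC, had the fewest windows in all 3 of its lists (21229 against 25458). As a share of such windows the pair was again the lowest, at 1.21%.

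Peak width and rank were then compared element by element. Stretches covered in any of the 8 cut lists were joined into 38242 elements, of which 8244 had a peak in all 8 lists. Width is the covered length within the element, tested as log2 and centred on the library median. Rank is that of the best peak, tested as log2 and signed so that a positive difference is a better rank in PLC. The model was limma with terms for treatment and region, over all 8244 elements.

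Width differed between the regions at 0 elements (limma, adjusted p under 0.05, 0% of 8244), with 199 at an unadjusted p under 0.05 (2.41%). The lowest adjusted p was 0.066. Rank differed at 0 elements (limma), with 1062 at an unadjusted p under 0.05 (12.9%) and a lowest adjusted p of 0.161. In simulated data with the spread of these elements and 200 changed ones, the rank test recovered 0 at a log2 difference of 1 and 152 at 2. The absence of rank calls therefore does not show that ranks were alike, since differences of 2-fold would be missed. For width the same kind of simulation recovered 99 of 200 at a log2 difference of 0.5 and 177 at 1. The region by treatment term gave 0 elements for width and 0 for rank (limma), with 180 (2.18%) and 331 (4.02%) at an unadjusted p under 0.05. By the stricter count, widths of the regions did not overlap at 75 elements with PLC above (0.91%) and 54 with ILC above (0.655%), 1.56% together, and ranks at 160 with PLC better (1.94%) and 372 with ILC better (4.51%), 6.45% together. Over the 6 other lists, 3 against 3 without Sham replicate 2, widths did not overlap at 518 of 13097 elements with PLC above (3.96%) and 347 with ILC above (2.65%), and ranks at 809 (6.18%) and 1245 (9.51%). Free exchange of region labels would separate untied values at a share of 0.0286 for 4 against 4 and 0.1 for 3 against 3, both directions together.

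Within Sham and within FT these differences were alike at some elements and opposite at others. The Sham and the FT difference of an element correlated across the 8244 elements at r = 0.14 for width and r = 0.32 for rank, and 47.1% of width differences and 59.3% of rank differences had the same sign. Without both Sham replicate 2 lists r was 0.14 and 0.30 over 13097 elements, and 45.3% and 59.4% had the same sign. Elements are not independent replicates, and the 8 lists lie behind every point. Within Sham, ranks of the regions did not overlap at 1496 elements with PLC better (18.1%) and 1507 with ILC better (18.3%), and within FT at 1719 (20.9%) and 1999 (24.2%). Free exchange of region labels within a treatment would separate untied values at a share of 0.333, both directions together. Of the 8244 elements, PLC was better in both treatments at once at 431 and ILC at 628. The direction was opposite at 207 (PLC in Sham) and 157 (ILC in Sham). How many would agree without a shared region difference was not tested. For width the counts were 1229 (14.9%) and 997 (12.1%) within Sham and 805 (9.76%) and 467 (5.66%) within FT. Of the 8244 elements, 166 and 107 had the same direction of width in both treatments and 47 and 78 the opposite one.

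The 2 elements with the lowest p for width were wider in ILC, though neither passed the threshold. At chr15:47793815-47799030 peaks covered 1300 and 1200 bp in PLC Sham and 2500 and 2400 bp in PLC FT, against 3500 and 2300 bp in ILC Sham and 4600 and 4500 bp in ILC FT. Every ILC list was above the PLC lists of its own treatment, and the log2 difference was -0.99 (SE 0.11, limma, adjusted p = 0.066). It was -1.09 within Sham and -0.89 within FT. Among the 21 regions with 4 libraries PLC had the lowest median here, 1850 bp, and BNST the highest, 4838.5 bp. At chr10:45871916-45876221 the covered length was 1900, 1200, 2500 and 2500 bp in PLC and 3300, 2700, 3800 and 4200 bp in ILC. The groups did not overlap there, with a log2 difference of -0.78 (SE 0.09, limma, adjusted p = 0.066). The third element, chr17:52314302-52319771, covered 1400 to 2100 bp in PLC and 1700 to 3900 bp in ILC (adjusted p = 0.887).

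On the PLC side the lowest p for width were at chr4:56258851-56261374, chr4:9881875-9885157 and chr1:220933802-220936829, all at an adjusted p of 0.887 (limma). At the first, 2000, 1400, 2300 and 2300 bp were covered in PLC and 1300, 1000, 2000 and 1700 bp in ILC. Coverage at the second was 1000, 700, 3000 and 2500 bp in PLC and 800, 500, 1600 and 1100 bp in ILC, and ILC had the lowest median of the 25 regions there, 950 bp. At the third, medians were 2500 bp in PLC, 2656.5 bp in InsularCortex, 2713.5 bp in CGC and 1600 bp in ILC, and 8 other regions had a median of 0.

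Ranks at single elements differed by up to several fold, and again none passed the threshold. At chr19:11517902-11520200 the peak ranked 4351 and 2020 in PLC Sham and 1945 and 2341 in PLC FT, against 734, 497, 811 and 752 in ILC. All ILC ranks were better than all PLC ranks, with a log2 difference of -1.87 (SE 0.34, limma, adjusted p = 0.161). At chr15:37486138-37488914 the ranks were 470, 532, 180 and 448 in PLC and 125.5, 106, 69 and 116 in ILC, and the element was among the strongest of the brain in BNST, with a median rank of 6. The third such element, chr9:116540457-116543678, ranked 5266, 4919, 2933 and 3614 in PLC and 964, 677.5, 1922 and 946 in ILC. On this element, too, BNST had the best median, 74.

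In the opposite direction, the element chr9:113983612-113986011 ranked 3563, 5078.5, 1655.5 and 1449 in PLC and 11322, 15518, 4084 and 5858 in ILC. PLC was better within each treatment, but PLC Sham 2 was behind ILC FT 1 (log2 difference 1.65, SE 0.30, limma, adjusted p = 0.161). At chr7:115820902-115823702 the ranks were 4678.5, 2146, 2375 and 1465 in PLC and 7954, 9252.5, 6207 and 6428.5 in ILC. PLC had the best median of the 25 regions there, 2260.5, followed by the insular cortex at 2623.25, and 11 regions had no peak in any list. At chr8:67102213-67105042 the ranks were 1080, 889.5, 1471 and 2116 in PLC and 3877, 6554, 4010 and 3224 in ILC.

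**Figure D4:**
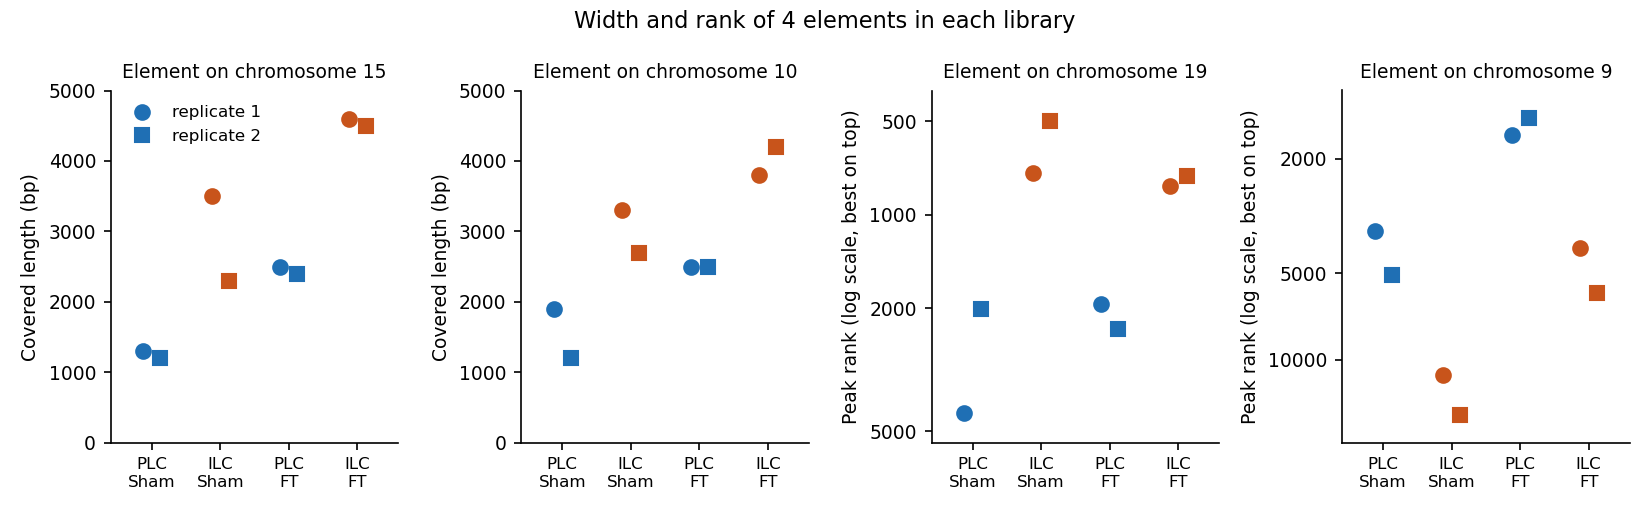
Covered length in bp of the elements on chromosomes 15 and 10 with the lowest p for width, and peak rank (log axis, best on top) of the elements on chromosomes 19 and 9 with the lowest p for rank in each direction, for each PLC (blue) and ILC (orange) list by treatment; circles are replicate 1 and squares replicate 2. Within each treatment every ILC list is wider at the first 2 elements and better ranked on chromosome 19 (497 to 811 against 1945 to 4351), and every PLC list is better ranked on chromosome 9.

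With both Sham replicate 2 lists left out, more elements could be tested and rank differences passed the threshold. Of 13097 elements with a peak in all 6 remaining lists, 137 differed in rank (limma, adjusted p under 0.05, 1.05%), 48 with PLC better (0.366%) and 89 with ILC better (0.68%). Sham was then represented by 1 library per region, and the libraries were taken as unpaired. The absolute log2 differences ran from 1.01 to 1.82 over both directions. Width again differed at 0 elements (limma), with 1055 at an unadjusted p under 0.05 (8.06%), and the region by treatment term was called at 1 element for rank (0.00764%) and 0 for width, with 1315 and 2612 at an unadjusted p under 0.05.

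The left-out lists had no part in these calls, and a missing peak was counted as the worse rank. In them, the ILC Sham replicate 2 peak ranked better than the PLC one at 74 of the 89 ILC elements and worse at 14, with a peak in neither list at 1. Where both lists had a peak, ILC was better at 67 of 81. Over all 13097 elements ILC ranked better at 43.8%. At the 48 PLC elements the PLC Sham replicate 2 peak ranked better at 31 and worse at 15, with a peak in neither at 2, where PLC ranked better at 45.9% of all elements. Where both had a peak, PLC was better at 23 of 37. The ILC element with the lowest p, chr19:11517902-11520200, ranked 2020 in PLC and 497 in ILC there, and the leading PLC element, chr9:113983612-113986011, ranked 5078.5 and 15518. The next PLC element, chr1:172816513-172819501, ranked 6742.5, 3120 and 2403 in the 3 PLC lists and 16431, 8661 and 9616.5 in the 3 ILC lists, and had no peak in either left-out list.

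The 137 elements again divided by their place in the rest of the brain. Elements ranked better in ILC were among the strongest sites of several subcortical regions, though not of all. Their median rank was 318.5 in BNST, 443 in Snt, 466.5 in the lateral hypothalamus (LH), 462 in VTA and 465 in the core of the nucleus accumbens (NaCcore). Elements ranked better in PLC had median ranks of 14679, 16639, 13748, 12283 and 12252 in the same regions, and all 13097 elements had 8631 in BNST. These were the regions with the widest gaps on a log scale. The ILC elements ranked less well in CMA (2214.75), dorDG (2778.25) and the arcuate nucleus (arc, 3837). The order was opposite in only 2 of the 23 regions, the insular cortex (2940 for PLC elements, 3518 for ILC elements) and PAG (4805 and 9268). In the insular cortex both sets stood ahead of the median of all elements, 6704, and each of the 137 elements had a peak in every insular list.

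**Figure D5:**
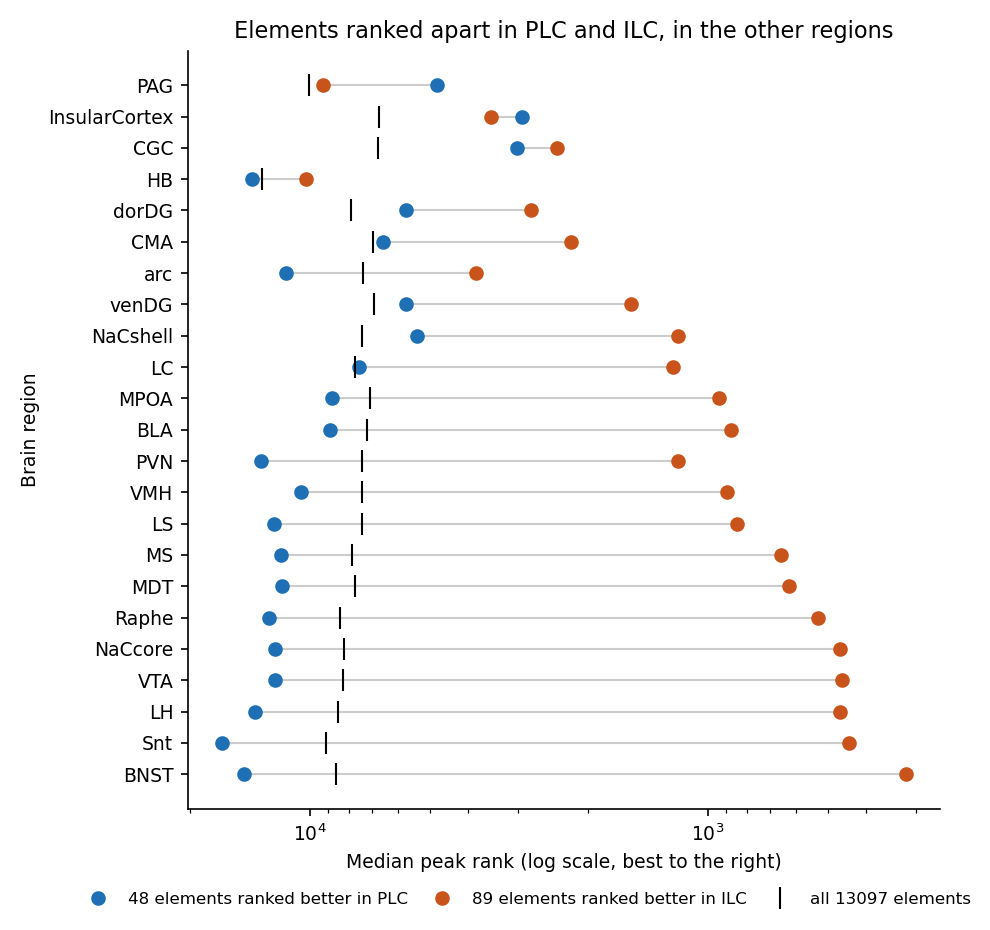
Median rank (x axis, log scale, best to the right) in each of the other 23 regions of the 48 elements ranked better in PLC (blue), the 89 ranked better in ILC (orange) and all 13097 elements (black bar), chosen without the Sham replicate 2 lists. Blue lies to the right of orange only in PAG and InsularCortex, and the gap is widest in BNST, at 14679 against 318.5.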

How the data were processed

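H3K27ac ChIP-seq peak lists of PLC and ILC punches (8 of 94 lists) were analysed; the 86 lists of 23 other regions served for comparison, and 4 input libraries were not used. According to the study's methods and the submitters' processing notes, reads were aligned to Rn5 with BWA and peaks were called with DFilter on each library separately; the sources used here give neither software versions nor read numbers. The deposited maxScore and normalised tag count are scores that depend on the library, and the deposited −log10 p-value of each peak lies between 4 and 200. The deposited false discovery rate, in percent, was 0 for every peak and was not used. Peak widths are multiples of 100 bp. The study's test on reads per peak could not be run on lists, so occupancy, width and rank took its place, and no gene names were attached since no Rn5 annotation was at hand. Starts were read as counting from 0 and are printed from 1. Peaks on unplaced scaffolds (2 lists of other regions) were left out.

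Lists were cut to 19378 peaks by maxScore. Library values and Jaccard indices were compared by exact permutation of region labels over 8 libraries (smallest two-sided p 0.0286, or 0.333 within a treatment), and elements by limma 3.58.1 in R 4.3.3 with Benjamini-Hochberg adjustment at 0.05. Scripts ran in Python 3.11.15 with numpy 2.4.6 and pandas 2.3.3 and were tested on simulated data. The loci named were, per direction, the 10 longest among those called on cut and on full lists (3 and 2 existed), and the elements named were the 5 with the lowest p among those called, or 3 where none was. The main tests took the 8 libraries as unpaired. Whether PLC and ILC libraries of a treatment and replicate number share animals was not stated outright in the study's methods. Their replicate differences correlated over windows at 0.22 in Sham and 0.01 in FT. The comparison, its members and its rules were chosen with earlier results of these data known. Alternatives were other cuts, rankings, windows, models and left-out libraries. Leaving out both Sham replicate 2 lists was chosen after seeing the data.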

Additional observations from a re-analysis of the deposited data

Results flagged for a closer look

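The direction of the region difference in covered length was opposite in the 2 treatments, with PLC below ILC in both Sham pairs and above it in both FT pairs. The log2 ratio of PLC to ILC was -0.16 in Sham and 0.11 in FT, a difference of 0.27. On the cut lists the covered length gave -0.09 and 0.02, a difference of 0.11, and the number of occupied windows -0.09 and 0.03, a difference of 0.12. These differences were not tested.

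In all, 3 groups of 4 lists had 1 member far from the others, out of 66 groups examined, where chance gives about 1 in 20. At the element chr19:11517902-11520200 the PLC Sham replicate 1 rank of 4351 stood apart from 1945 to 2341 in the other PLC lists, with a gap of 0.835 of the range. LS FT replicate 1 occupied 3.23% of the 31 PLC windows against 9.68% in each of the other 3 LS lists, a gap of 1.0 of the range, or 1 window against 3. LS Sham replicate 2 occupied 62.7% of the 375 ILC windows called without the Sham replicate 2 lists against 74.7% to 76.3% in the other LS lists, a gap of 0.882 of the range.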

How the results depend on the processing

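Of 148 values recomputed under alternatives, 104 kept their direction and their side of the threshold, stayed without a call where the main value was 0, or stayed within 1.5 times the count. The log2 ratio of median width, 0 in the main comparison and so without a direction, stayed without a call in all 13 alternatives. The difference in Jaccard index kept its sign in 15 of 16 and was 0.0015 without both Sham replicate 2 lists, with no call in any. The log2 ratio of covered length became -0.021 on cut lists. Leaving out 1 library gave log2 ratios of -0.18 to 0.26 for peak number, -0.25 to 0.32 for covered length, -0.13 to 0.13 for width and -0.03 to -0.01 for the Jaccard difference, all with no call. Windows higher in PLC and in ILC numbered 14 and 13 on full lists, 29 and 80 on the best 10000 peaks, 49 and 92 at equal covered length, 28 and 89 at a −log10 p of at least 6, 40 and 63 by normalised tag count, 47 and 112 with any overlap, 4 and 13 with the whole window covered, 36 and 54 from peak centres, and 0 and 1 in windows of 5 kb. The cut by the deposited p gave the same 88 windows, and the cut by tag count shared 26 of its 103 with them. Of the calls, 3 of 109 on the best 10000 peaks, 4 of 141 at equal covered length, 2 of 117 at the stricter p, 73 of 159 with any overlap and 46 of 90 from centres were among the 88, so most of the windows called under the first 3 of these settings were different ones. In the replicate block they numbered 476 and 659, and without both Sham replicate 2 lists 268 and 375. Leaving out 1 library gave 36 to 250 in PLC and 69 to 335 in ILC, where the rule then asks for fewer lists. The share of calls higher in PLC was 35.2% in the main count, 51.9% on full lists, 26.6% on the best 10000 peaks, 23.9% at the stricter p, 78.4% without PLC Sham replicate 2 and 9.7% without ILC Sham replicate 2. Width differed at 0 to 1 elements over left-out libraries (1 without PLC Sham replicate 1). Rank differed at 0 over left-out libraries and at 137 without both Sham replicate 2 lists. The region by treatment term for width was called at 0 to 292 elements, with 191 without PLC Sham replicate 1 and 292 without ILC Sham replicate 1, each of which leaves Sham replicate 2 as the only Sham library of that region. For rank it was called at 0 to 0 over left-out libraries. Without both Sham replicate 2 lists this term rests on 1 Sham library per region, and its counts are not given. The replicate block changed no other call. The cause of these changes was not tested.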
